A study of Mus musculus with 3 samples.

Results

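The Hox genes measured here are the 33 genes of the Hoxa, Hoxb, Hoxc and Hoxd clusters that have a probe set with no other gene on it, chosen by symbol from 30142 named genes. Hoxa7, Hoxa9, Hoxb4, Hoxd3 and Hoxd4 lie on 4 probe sets that list another gene as well and are not analysed here. Each of the 33 members had 1 probe set, and no measured value entered the choice.

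Total RNA came from primary dorsal root ganglion neurons of male ICR mice aged 8 to 10 weeks. One array was hybridised per medium after 72 hours of culture. The first medium held DMEM with the B27 supplement, 1 µg/ml recombinant SEMA3E, a secreted semaphorin, and a blocking IgG at 1 µg/ml. The second held DMEM with B27 and the same SEMA3E without the IgG, and the control medium held DMEM with B27 alone. All 3 groups share the strain, sex and age range. The labels do not say which ganglia along the spine were taken, nor how many animals were pooled. ICR is an outbred strain, and a ganglion culture holds satellite glia, Schwann cells, fibroblasts and macrophages beside its neurons.

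Hox genes encode homeodomain transcription factors that give cells of the embryo their position along the axis from hindbrain to tail. Within each cluster the genes lie in order: low-numbered paralogue groups are switched on early and reach furthest forward, high-numbered ones act towards the tail. Spinal neurons, neural crest derivatives and fibroblasts can keep part of this positional pattern in the adult, so that ganglia of the neck, trunk and lumbar region differ in the Hox genes they express.

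Each array held 65956 probe sets, with a median between 44.52 and 44.97 intensity units. Levels are given as deposited intensity units or as log2(value + 1). The background floor is the 95th percentile of the means of 492 vomeronasal receptor genes (Vmn1r and Vmn2r), which this tissue is not known to use, and lay at 43.7 units or 5.48 on the log2 scale. Probe sets differ in how strongly they respond, so each level is set against the floor and the levels are no ranking of RNA amount between genes. Many deposited values recur: the control array has 25830 distinct values, and 26 of the 33 Hox genes share their control value with at least 1 other probe set. All 11 pan-neuronal and all 10 measured sensory neuron markers lay above the floor, against 58.6% of all genes. So did 5 of 6 Schwann cell, all 5 satellite glial, 8 of 9 fibroblast and 6 of 8 macrophage markers. Of the macrophage markers Csf1r and Ptprc lay below it, at 30.4 and 26.4 units. Above it lay also 4 of 5 endothelial and all 5 mural markers. Of the markers of tissue that a dissection could carry along, fewer lay above the floor. These were 2 of 5 spinal motor neuron, 2 of 5 spinal cord glial and 2 of 6 skeletal muscle genes. Of the motor neuron genes, Mnx1, Chat and Slc18a3 lay below it, and Slc5a7 and Isl2 above it at 83.6 and 97.0 units. No medium was replicated, so no value below has an error or a test, and precision is limited by having 1 array per medium.

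Of the 33 Hox genes 18 lay above the floor (54.5%), against 58.6% of all 30142 genes. They were spread over all 4 clusters but ended at 1 point: from paralogue group 1 to 10, 18 of 24 members lay above the floor, and from group 11 to 13, 0 of 9 did. This split of the groups was chosen after the levels were seen. The median level was 6.18 in groups 1 to 10 and 4.18 in groups 11 to 13 on the log2 scale. The median of the vomeronasal receptor genes was 4.44. The highest member was Hoxc6 at 190.8 units and the lowest Hoxd13 at 11.9 units. The count was also 18 when each array was set against its own floor. That could hardly differ, since 30 of the 33 members held identical values on all 3 arrays. In whole cultures fewer cells of a type and less RNA per cell cannot be told apart, nor can the cells that gave a signal be named.

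**Figure D1:**
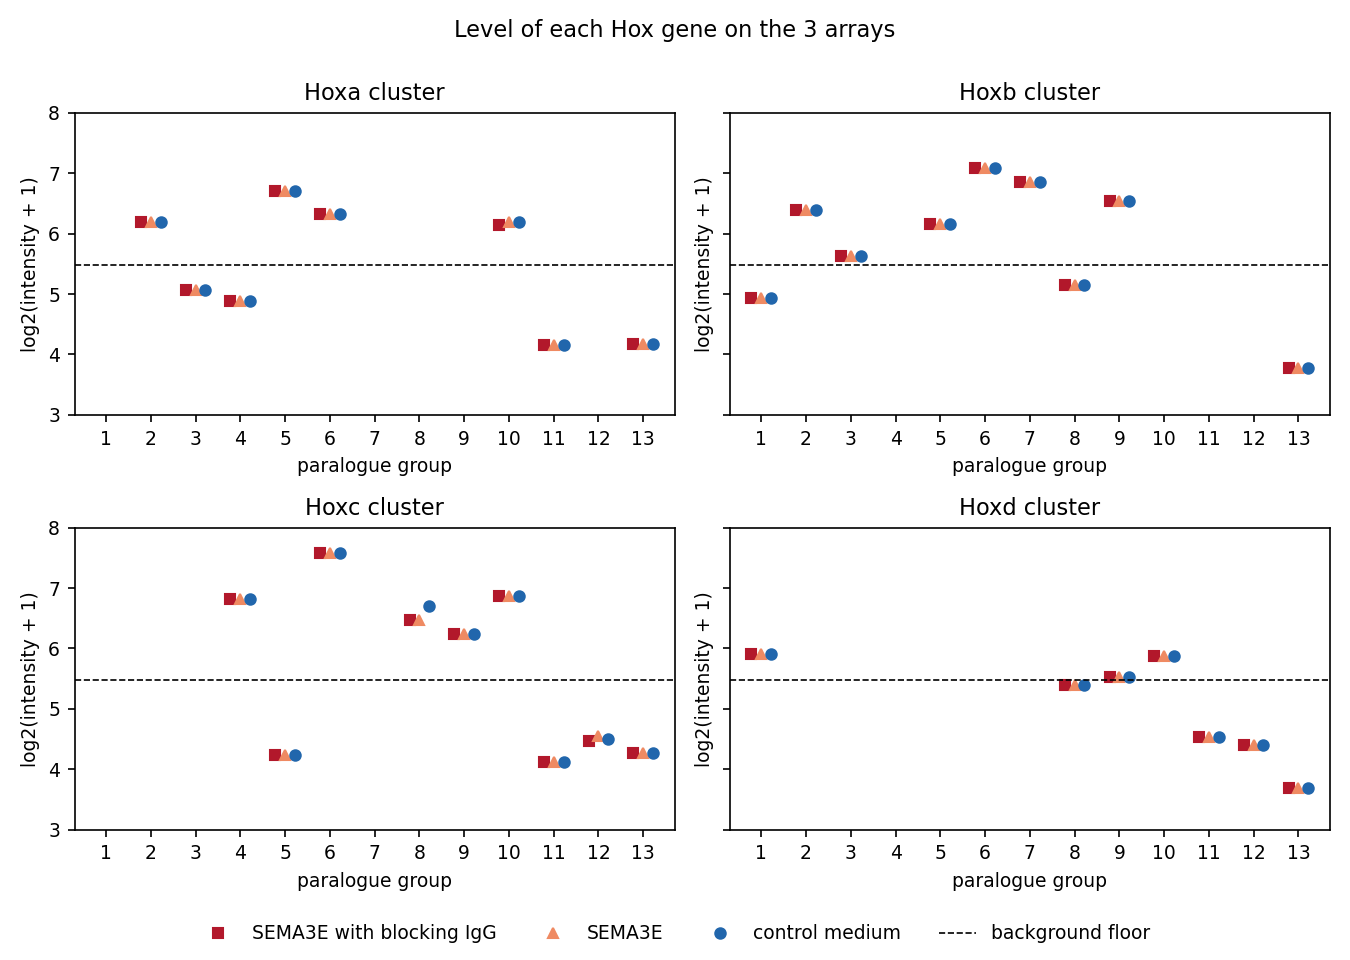
Level of each of the 33 Hox genes, as log2(intensity + 1), by paralogue group in the 4 clusters, with 1 point per array for SEMA3E with blocking IgG, SEMA3E and control medium. The dashed line is the floor of 5.48. Points of a gene coincide in height except for Hoxc8, Hoxa10 and Hoxc12, and all 9 genes of groups 11 to 13 lie below the line.

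In the Hoxa cluster on chromosome 6, 4 of 8 members lay above the floor. Hoxa2, which sets identity in the hindbrain and the second pharyngeal arch, held 72.2 units on all 3 arrays. Hoxa5, needed for the lung and for phrenic motor neurons, held 103.9 units on each array, and its neighbour Hoxa6 held 79.4 units. Between Hoxa2 and Hoxa5 the level dropped below the floor: Hoxa3, a gene of the thymus and parathyroid, held 32.4 units and Hoxa4, a gene of the neck vertebrae, held 28.6 units on every array. At the other end Hoxa10, which acts on lumbar patterning and the uterus, held 69.8 units with SEMA3E and IgG, 71.8 units with SEMA3E and 71.8 units in control medium. The next gene, Hoxa11, a gene of the forearm and kidney, held 16.7 units on all arrays, and Hoxa13, a gene of digits and the hindgut, held 17.1 units. At this end the step from above to below the floor thus fell between the adjacent genes Hoxa10 and Hoxa11. The mean level of Hoxa10 was reached by 5 of the 492 vomeronasal receptor genes.

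In the Hoxb cluster on chromosome 11, 6 of 9 members lay above the floor, and each of the 9 held an identical value on all 3 arrays. Hoxb1, the gene of the fourth hindbrain segment, lay below it at 29.5 units. Hoxb2, which also acts in the hindbrain, held 83.3 units, and Hoxb3 held 48.6 units, just above the floor. Hoxb5, a gene of the neural crest that forms the gut's nervous system, held 70.1 units. The signal of the cluster was highest at Hoxb6 with 134.3 units and Hoxb7 with 114.6 units, genes of the trunk. Hoxb8, which acts in the spinal cord and in microglia, lay below the floor at 34.6 units between Hoxb7 and Hoxb9, a thoracic gene with 92.2 units. Hoxb13, known from the prostate and the tail, lies apart from the others and held 12.6 units.

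In the Hoxc cluster on chromosome 15, 5 of 9 members lay above the floor, and it held the member with the highest signal of the 33. Hoxc4 held 111.7 units and Hoxc6, which marks brachial motor neurons, held 190.8 units on all 3 arrays. Hoxc5, which lies between them and acts with Hoxa5 in phrenic motor neurons, held 17.8 units, a level that 342 of the 492 vomeronasal receptor genes reached. Hoxc8, a gene of brachial motor and sensory neurons, was the member that differed between media and is described below. Hoxc9, which sets thoracic identity in motor neurons, held 74.2 units, and Hoxc10, a lumbar gene, held 115.9 units. Beyond it Hoxc11 held 16.4 units and Hoxc13, known from hair and nails, 18.4 units. Hoxc12 lay below the floor too, at 21.2 units with SEMA3E and IgG, 22.6 units with SEMA3E and 21.6 units in control medium. As in Hoxa, the step to background fell between group 10 and group 11.

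In the Hoxd cluster on chromosome 2, 3 of 7 members lay above the floor and all 7 held identical values on the 3 arrays. Hoxd1, which in the mouse is used by developing nociceptors, held 59.2 units. Hoxd8 and Hoxd9, which lie side by side in the cluster, were the members nearest to the floor of 43.7 units, Hoxd8 at 41.3 units and Hoxd9 at 45.4 units. Hoxd10, which acts with Hoxa10 and Hoxc10 in lumbar motor neurons, held 57.8 units. Hoxd11, Hoxd12 and Hoxd13, known best from the limb bud, held 22.1, 20.2 and 11.9 units. In Hoxd, too, the last gene above the floor was that of group 10, but with the floor at the 99th percentile of the vomeronasal genes 0 of 7 Hoxd members lay above it and no step remained. The Hoxb cluster of the mouse has no gene of groups 10 to 12, so the step cannot be placed there.

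**Figure D2:**
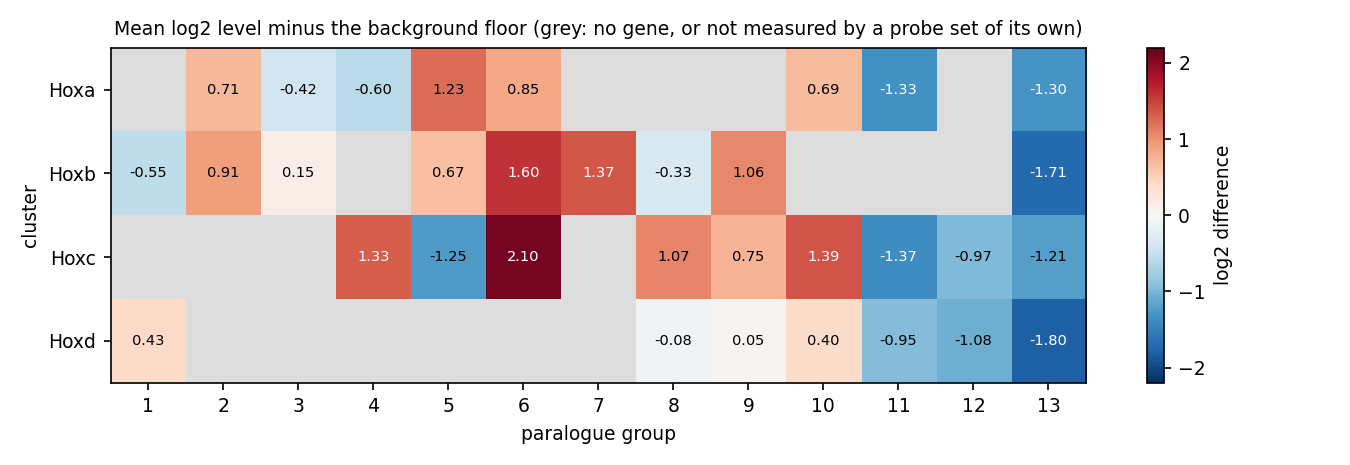
Mean log2 level over the 3 arrays minus the floor of 5.48, for each cluster (rows) and paralogue group (columns), grey where no gene exists or none was measured on a probe set of its own. Groups 2, 6, 7, 9 and 10 are above the floor in every measured cluster, while groups 11, 12 and 13 are below it in every measured cluster.

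Read across the clusters, all measured members lay above the floor in groups 2 (2 of 2), 6 (3 of 3), 7 (1 of 1), 9 (3 of 3) and 10 (3 of 3). In groups 1, 3 and 4 the count was 1 of 2 each, in group 5 it was 2 of 3 and in group 8 it was 1 of 3. Group 8 is the one of the trunk groups in which most measured members were low: Hoxb8 and Hoxd8 lay below the floor and Hoxc8 above it. That turns on Hoxd8, at 41.3 units against a floor of 43.7 units. With the floor at the 90th percentile of the vomeronasal genes Hoxd8 lay above it. Hoxd9, counted in group 9, lay near the floor on the other side, at 45.4 units. In groups 11 (0 of 3), 12 (0 of 2) and 13 (0 of 4) every member lay below the floor, and between 212 and 479 of the 492 vomeronasal receptor genes were at or above each of them. No vomeronasal receptor gene reached the mean level of Hoxa5, Hoxb6, Hoxb7, Hoxc4, Hoxc6 or Hoxc10. None reached that of Hoxc8 either, but by a very small margin: 6.549 on the log2 scale against 6.548 for the highest vomeronasal gene. The control array raised that mean, and on both SEMA3E arrays Hoxc8 held 6.474. The mean levels of Hoxb3, Hoxd9 and Hoxd10 were reached by 20, 23 and 8 of the vomeronasal receptor genes. Some probe sets may read RNA of a neighbour: in the RefSeq annotation 7 members overlap another Hox gene, among them Hoxa3 with Hoxa4, Hoxa5 and Hoxa6, and Hoxd10 with Hoxd11.

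Most Hox genes held the same value in all media. Of the 33 members 30 (90.9%) held an identical deposited value on all 3 arrays, with equality taken to the last deposited digit, against 78.9% of all genes and 74.9% of the genes at or above the floor. Among the genes in the brightness range of the 18 members above the floor, 83.9% were identical on all 3 arrays, and 16 of those 18 members were. An identical value does not show equal RNA, since the authors' summary of the probes may hide small differences. The median difference of the members was 0 in each comparison, as it was for all genes.

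The first comparison, SEMA3E against control medium, asks which transcripts differ after exposure to SEMA3E. Of the 33 Hox genes 1 was higher, 1 was lower and 31 were identical, where 7.4% of all genes were higher, 8.21% were lower and 15.6% differed. Among the 18 members above the floor 1 differed, against 18.6% of all genes there. At a size of 1.1-fold or more, 1 Hox gene differed, against 3.27% of all genes, and at 1.5-fold 0 did, against 0.116%. That gene was Hoxc8, with 87.9 units with SEMA3E and 103.0 units in control medium, a difference of -0.23 on the log2(value + 1) scale. Hoxc12 was the higher one, by 0.06 on the log2 scale, with both values below the floor.

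The second comparison, SEMA3E with the blocking IgG against control medium, asks which differences from control are present when the antibody is added. Of the 33 members 3 were lower, 0 higher and 30 identical, where 8.56% of all genes were lower, 6.48% were higher and 15% differed. Among the 18 members above the floor 2 differed, against 19% of all genes there. Hoxc8 held 87.9 units with SEMA3E and IgG against 103.0 units in control medium, again a log2 difference of -0.23. Hoxa10 differed by -0.04 and Hoxc12 by -0.03, and Hoxc12 lay below the floor. At 1.1-fold or more, 1 member differed, against 3.32% of all genes, and at 1.5-fold 0 did, against 0.129%.

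In the last comparison, SEMA3E with IgG against SEMA3E alone, 2 members were lower, 0 higher and 31 identical, where 9.87% of all genes were lower, 7.14% were higher and 17% differed. Among the 18 members above the floor 1 differed, against 20.5% of all genes there. Hoxc8 held the same 87.9 units on both arrays, so its value with the IgG did not lie nearer to control. Hoxa10 (-0.04) and Hoxc12 (-0.08) were lower with the IgG. At 1.1-fold or more, 0 members differed, against 3.99% of all genes, and at 1.5-fold 0 did, against 0.0995%. At 2-fold 0 members differed in all 3 comparisons, while 0.0232% of all genes did between SEMA3E and control, 0.00995% between SEMA3E with IgG and control and 0.00664% between SEMA3E with IgG and SEMA3E. The 3 comparisons share arrays, so their values are not independent.

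**Figure D3:**
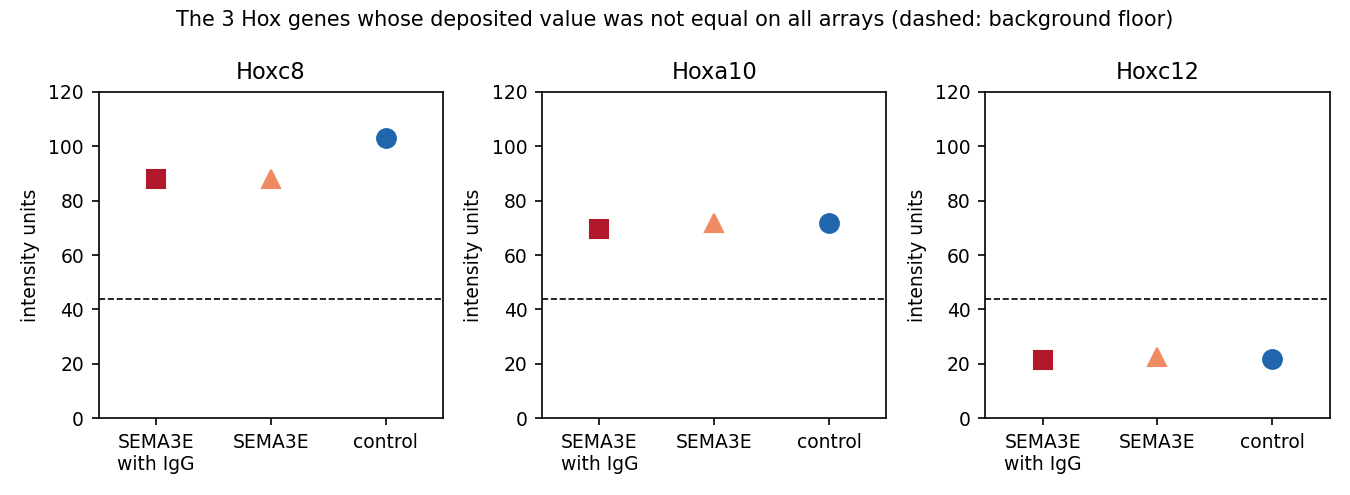
Deposited intensity units of Hoxc8, Hoxa10 and Hoxc12 on the arrays for SEMA3E with IgG, SEMA3E and control medium, with the floor of 43.7 units dashed. Hoxc8 is lower on both SEMA3E arrays (87.9 units each) than on the control array (103.0 units), and Hoxc12 stays below the floor throughout.

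The difference of Hoxc8 rests on the control array alone, since both arrays with SEMA3E hold 1 value, and with 1 array per medium it has no measure of chance. Pan-neuronal markers were lower on the same arrays: 7 of 11 were lower and 0 higher with SEMA3E, and 8 of 11 were lower and 0 higher with SEMA3E and IgG, relative to control. The largest of these log2 differences was that of Tubb3, -0.16 on both arrays. The next were -0.06 for Nefl with SEMA3E and -0.07 for Stmn2 with SEMA3E and IgG. Over all genes 8.21% were lower with SEMA3E and 8.56% with SEMA3E and IgG. Those shares cover genes of every brightness, and these markers are bright. The summed level of the pan-neuronal markers was 418001 units with SEMA3E and IgG, 420294 units with SEMA3E and 426178 units in control medium. Uchl1, the largest part of each sum, held 205992 units on all 3 arrays. Of the sensory neuron markers 0 of 10 differed from control with SEMA3E and IgG and 3 of 10 were lower with SEMA3E, with sums of 21199 units with SEMA3E and IgG, 21021 units with SEMA3E and 21199 units in control medium. Among the 5 satellite glial markers 3 were identical on all 3 arrays, and Kcnj10, a potassium channel gene, held 273.0 units with SEMA3E and IgG, 337.4 units with SEMA3E and 398.7 units in control medium. The log2 differences of Kcnj10 from control were -0.54 with SEMA3E and IgG and -0.24 with SEMA3E. Fabp7 went the other way with SEMA3E, at 3969.6 units against 3631.4 units both in control medium and with SEMA3E and IgG. The satellite glial sums were 12666.5 units with SEMA3E and IgG, 13069.1 units with SEMA3E and 12792.2 units in control medium. Among the fibroblast markers 8 of 9 were identical on all 3 arrays, with sums of 11815 units with SEMA3E and IgG, 11815 units with SEMA3E and 11818 units in control medium. All 6 Schwann cell markers were identical. The part of these markers in the value of Hoxc8 was not tested.

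Inside the clusters, 11 measured genes are not Hox genes, in RefSeq's gene order. Of these 11, 4 lay above the floor, against 58.6% of all genes. The long noncoding RNA gene Hotair, which lies between Hoxc11 and Hoxc12, held 19.7 units on all arrays, below the floor like both neighbours. Hoxb3os, which lies by Hoxb2 and Hoxb3 and is antisense by name, held 68.5 units, and the noncoding gene Gm15050 in the Hoxa cluster held 103.2 units. The pseudogene Gm11539 in the Hoxb cluster was listed at 26854 units on each array, and pseudogenes can share sequence with a parent gene.

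The clusters also hold microRNA genes, of which 4 of 6 had a probe set of their own. MicroRNAs of the miR-10 and miR-196 families target Hox mRNAs among others. The probe sets read the gene's RNA on the array, not the mature microRNA. Mir196a-2, which lies between Hoxc10 and Hoxc9, held 64.6 units on all 3 arrays, above the floor like both neighbours. Mir196a-1, beside Hoxb9, held 22.4 units with SEMA3E and IgG, 25.6 units with SEMA3E and 22.4 units in control medium, below the floor. Mir10b beside Hoxd4 held 21.4 units and Mir615 between Hoxc5 and Hoxc4 held 16.2 units. Both Mir196a genes yield the same mature microRNA from unlike hairpins, which are shown because their genes lay on opposite sides of the floor. Capitals mark the mature miR-196a-5p in these RefSeq sequences.
Mir196a-1 hairpin (GRCm38.p6, chr11:96265164-96265265, plus strand): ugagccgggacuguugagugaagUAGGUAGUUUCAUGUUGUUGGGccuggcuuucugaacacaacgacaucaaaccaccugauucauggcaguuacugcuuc
Mir196a-2 hairpin (GRCm38.p6, chr15:102973350-102973434, plus strand): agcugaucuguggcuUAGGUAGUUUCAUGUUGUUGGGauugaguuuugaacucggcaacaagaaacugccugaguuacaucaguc

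The mature miR-10b-5p and miR-196a-5p, and miR-615-3p from outside these families, are shown without the other arms of their hairpins. Their seeds, bases 2 to 8, are in capitals, since the seed decides which targets are read. Mir10a and Mir196b, whose probe sets list a Hox gene too and have no value here, differ from the forms shown by U12A (miR-10a-5p to miR-10b-5p) and A12C (miR-196a-5p to miR-196b-5p), counted from the 5′ end, and share the seeds. The mature miR-196a-5p lies within Mir196a-1 at the place given and within Mir196a-2 at chr15:102973365-102973386.
mmu-miR-10b-5p (GRCm38.p6, chr2:74726074-74726096, plus strand): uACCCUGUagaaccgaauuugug
mmu-miR-196a-5p (GRCm38.p6, chr11:96265187-96265208, plus strand): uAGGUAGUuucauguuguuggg
mmu-miR-615-3p (GRCm38.p6, chr15:103014969-103014990, plus strand): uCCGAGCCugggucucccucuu

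Hox promoters are often rich in CG dinucleotides, which in the embryo go with silencing by Polycomb proteins and release from it. RefSeq promoters were listed for 17 of the 33 members (51.5%), too few for a comparison over the set, for which 80% is the least share used here. The 250 bases before the start are shown as examples for the members with the highest and lowest signal in the Hoxa and Hoxd clusters, among the 15 with 1 listed promoter. CG is in capitals, and the letters read the same on both strands. Hoxa5 had 28 CG and Hoxa11 had 13. Hoxd1 had 24 CG and Hoxd13 had 31. At least as many were found in 7.61%, 31.5%, 11.98% and 5.19% of all 32851 listed promoters, in the order Hoxa5, Hoxa11, Hoxd1 and Hoxd13. In Hoxa the gene above the floor had more CG than the one below it, and in Hoxd it had fewer.
Hoxa5 (GRCm38.p6, chr6:52204588-52204837, minus strand): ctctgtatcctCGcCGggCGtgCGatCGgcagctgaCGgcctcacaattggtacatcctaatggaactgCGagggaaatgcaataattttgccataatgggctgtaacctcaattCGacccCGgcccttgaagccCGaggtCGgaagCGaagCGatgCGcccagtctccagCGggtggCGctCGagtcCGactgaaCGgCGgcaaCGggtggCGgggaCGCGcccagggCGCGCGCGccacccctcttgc
Hoxa11 (GRCm38.p6, chr6:52245811-52246060, minus strand): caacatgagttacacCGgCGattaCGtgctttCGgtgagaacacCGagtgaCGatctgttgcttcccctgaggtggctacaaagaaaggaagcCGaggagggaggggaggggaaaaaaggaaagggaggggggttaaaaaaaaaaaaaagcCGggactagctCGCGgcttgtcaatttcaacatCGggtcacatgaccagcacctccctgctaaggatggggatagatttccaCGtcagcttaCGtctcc
Hoxd1 (GRCm38.p6, chr2:74762730-74762979, plus strand): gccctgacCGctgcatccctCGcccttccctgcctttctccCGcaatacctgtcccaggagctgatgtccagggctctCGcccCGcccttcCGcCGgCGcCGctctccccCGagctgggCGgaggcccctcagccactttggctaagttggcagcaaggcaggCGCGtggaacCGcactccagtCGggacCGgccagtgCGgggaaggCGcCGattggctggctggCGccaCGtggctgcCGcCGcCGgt
Hoxd13 (GRCm38.p6, chr2:74667975-74668224, plus strand): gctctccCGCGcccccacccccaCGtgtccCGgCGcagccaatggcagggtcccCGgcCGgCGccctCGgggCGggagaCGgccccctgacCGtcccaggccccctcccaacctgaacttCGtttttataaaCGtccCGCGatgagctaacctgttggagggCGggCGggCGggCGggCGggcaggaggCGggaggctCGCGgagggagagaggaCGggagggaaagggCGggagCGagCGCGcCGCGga

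Hox proteins bind DNA together with homeodomain cofactors of the TALE class (Pbx, Meis and Pknox proteins). Of TALE genes, listed from general knowledge and with the related repressor genes Tgif1 and Tgif2 among them, 10 were measured. All 10 lay above the floor, against 58.6% of all genes. All 10 were also identical on the 3 arrays, against 74.9% of the genes at or above the floor. Pbx2 held 368.6 units, Pbx3 353.1 units and Meis2 141.6 units on each array. All 26 measured Polycomb and Trithorax genes, chromatin regulators of Hox clusters, lay above the floor too, against the same 58.6%. Of the 26, 22 were identical on all 3 arrays, against the same 74.9%. Some members lay below the 99th percentile of the vomeronasal genes, at 6.06 on the log2 scale. These were Ring1, Cbx8, Pcgf2 and Cbx7, and of the TALE genes Tgif2, Pknox1 and Pbx4. The Polycomb subunit Eed held 2537 units with SEMA3E and IgG, 2537 units with SEMA3E and 2423 units in control medium, a log2 difference of 0.07 from control on both arrays. The Polycomb methyltransferase Ezh1 held 2410 units with SEMA3E and IgG, 2264 units with SEMA3E and 2410 units in control medium, so that it was lower with SEMA3E alone (-0.09). Of subunits of the Trithorax methyltransferases, Dpy30 was lower than control with SEMA3E and IgG (-0.07) and Rbbp5 higher (0.02), and both held the control value with SEMA3E alone.

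The homeobox genes nearest to the Hox genes by place or origin were low. Of 9 genes that flank or are related to the Hox clusters, such as Evx1, Evx2, Cdx2 and Pdx1, 0 lay above the floor, with means from 3.52 to 5.40 on the log2 scale, and all 9 were identical on the 3 arrays. Of 17 measured transcription factors listed for their part in the embryonic head and hindbrain, not all of them confined to it, 3 lay above it. Those were Egr2, which myelinating Schwann cells also use, at 526.8 units, Irx3 at 119.4 units with SEMA3E and IgG, 120.4 units with SEMA3E and 120.4 units in control medium, and Dmbx1 at 52.3 units. Otx1, Otx2, Emx1, Emx2, En1, En2 and Gbx2, which mark forebrain, midbrain and the border to the hindbrain, all lay below. Hox genes are silent in the forebrain and midbrain. The counts above the floor were 18 of 33 for Hox genes and 3 of 17 for these factors, against 58.6% of all genes. The Hox count is near that share, and these counts do not place the cells along the body axis.

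Of 22 measured transcription factors of sensory neurons 11 lay above the floor, near the 58.6% of all genes. All 22 were identical on the 3 arrays, against 78.9% of all genes. Pou4f1 and Isl1, the factors that define sensory neurons of the ganglia, held 4962 and 2089 units, and Runx1, a factor of nociceptors, held 323.8 units. Neurog1 and Neurog2, which act in the embryo before neurons form, lay below the floor. So did Runx3 at 33.0 units, Tlx3 at 19.0 units, Hmx1, Mafa, Insm1, Lmx1b, Prdm8, Eya1 and Bcl11a. Of 18 genes that set Hox expression in the embryo 13 lay above it, against the same 58.6% of all genes, among them the retinoic acid receptor genes Rara, Rarb and Rarg at 72.2, 144.8 and 116.6 units. Of the enzymes that break down retinoic acid, Cyp26b1 lay just above the floor at 45.2 units and Cyp26a1 and Cyp26c1 below it at 38.6 and 17.4 units. Gdf11, a signal that switches on posterior Hox genes, held 425.7 units with SEMA3E and IgG, 428.1 units with SEMA3E and 428.1 units in control medium.

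**Figure D4:**
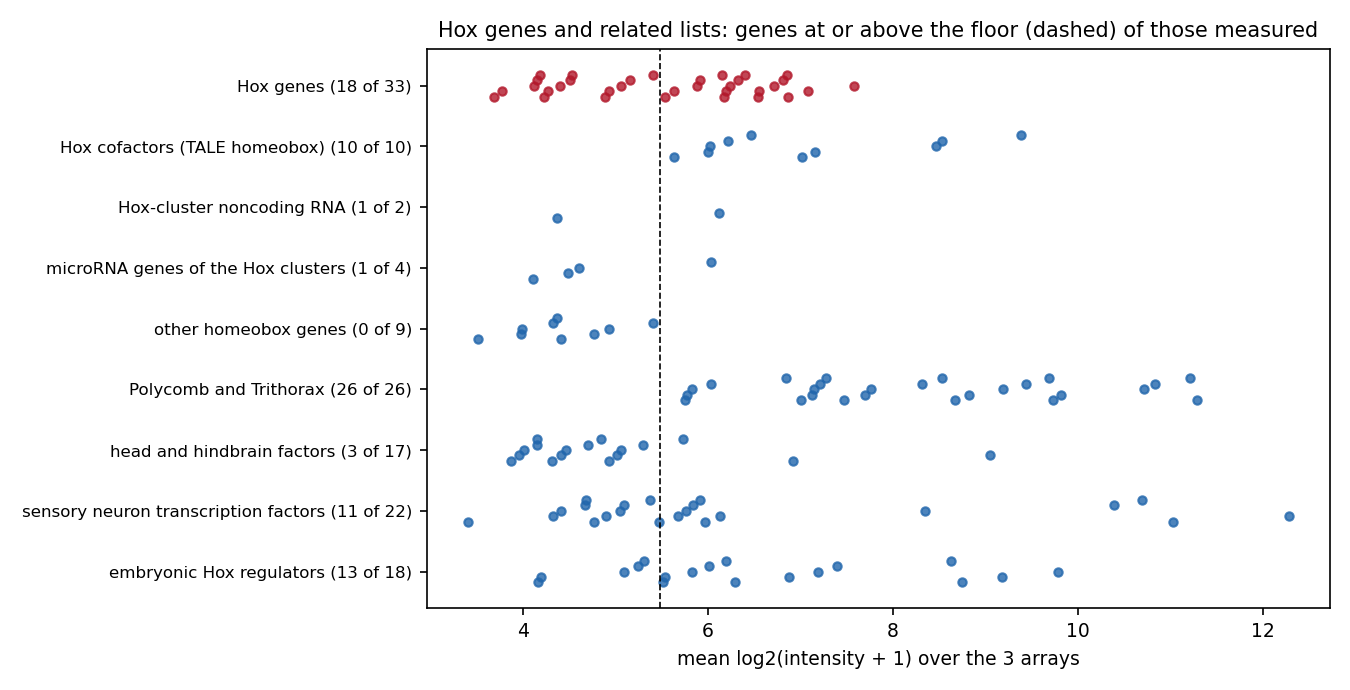
Mean log2(intensity + 1) over the 3 arrays of every measured member of the Hox genes (top, 18 of 33 above the floor) and of the 8 related lists, with 1 point per gene, the floor dashed and the vertical spread within a row added for legibility. All TALE cofactors and all Polycomb and Trithorax genes lie above the floor, and all 9 other homeobox genes below it.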

How the data were processed

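RNA of 3 cultures, 1 per medium, was labelled with biotin for a GeneChip array, per the labels. The authors deposited linear intensity values made with Affymetrix Expression Console, as the submitters' processing notes state. The software version, the build, the probe summary and the array normalization were not given in the sources used here. A method that makes arrays alike would reduce differences between media.

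Values run to 496402 and were taken as log2(value + 1). Of 65956 probe sets 30604 have 1 symbol, 2146 several and 33206 none. Symbols were updated by gene number through RefSeq (GRCm38.p6), except those of the Hox genes, and the brightest probe set of each gene was kept. The floor was the 95th percentile of 492 vomeronasal receptor genes.

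The Hox genes, the related lists and the markers were chosen with earlier results of these data known. All 33 Hox genes were named; in related lists at most 4 members furthest apart were named by rule, and others to illustrate, chosen after their values were seen. The 11 other genes inside the clusters and the promoters shown were added after the data were seen. With 1 array per medium no test was possible; differences are counts and values, called at any difference, 1.1-fold, 1.5-fold and 2-fold. The planned protein comparison was not made, since no protein sequences were used here. The calculation of differences was tested on simulated data with known shifts, which gives no error for the arrays. Alternatives changed the floor, offset, scaling, probe set rule and size of difference. The work used Python 3.11.15 with numpy 2.4.6, pandas 2.3.3, statsmodels 0.14.6 and matplotlib 3.10.9.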

Additional observations from a re-analysis of the deposited data

How the results depend on the processing

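The number of Hox genes above the floor was 18 and ranged from 14 to 19 over the alternatives. With the floor at the 99th percentile of the vomeronasal genes it was 14, without Hoxb3, Hoxd1, Hoxd9 and Hoxd10. At the 90th percentile it was 19, with Hoxd8, and with the floor taken from 1225 olfactory receptor genes it was 17, without Hoxd9. It stayed at 18 with each array alone and after quantile normalization. It was also 18 with an offset of 16 or the mean over probe sets, which by construction can hardly move it, since each Hox gene has 1 probe set and the offset moves the floor with the genes. The count in groups 11 to 13 was 0 in all of these settings. It could hardly change, since these groups were set apart after their levels were seen. Their highest mean was 4.53 on the log2 scale, and the lowest floor used was 5.23.

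Counts of Hox genes that differ at all (2, 3 and 2 for SEMA3E against control, SEMA3E with IgG against control, and SEMA3E with IgG against SEMA3E) depend on exact equality. They became 33 in both comparisons with control after centring and 31, 26 and 31 after quantile normalization, because rescaling moves identical values by a little. At 1.1-fold in place of any difference they were 1, 1 and 0, and at 1.5-fold 0, 0 and 0. Among members above the floor they were 1, 2 and 1. Hoxc8 stayed lower than control in both comparisons under every scaling, and between SEMA3E with IgG and SEMA3E it moved to -0.0039 after quantile normalization. Of 105 alternative values, most of them counts without a sign, 19 moved. No paired analysis was possible because each medium has 1 array. Values near the floor, such as those of Hoxd8, Hoxd9 and Hoxb3, cannot be told from background with confidence on these arrays.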
